A study of Homo sapiens with 16 samples.

Results

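The genes described here are 9 genes of antigen presentation in K562, a human erythroleukemia cell line, namely the class I genes HLA-B, HLA-C, HLA-E and B2M, the class II genes HLA-DRA, HLA-DPA1 and HLA-DQA1, and the activators CIITA and NLRC5. They were chosen by function and not by a measured value, although earlier results of these data were known. They are 9 of the 19839 genes annotated as protein-coding on the autosomes and X. Each gene was read through its window, the gene body with 5 kb on either side, in 14 lists of H3K27ac peaks. H3K27ac, acetylation of lysine 27 of histone H3, marks active promoters and enhancers. A peak was counted where the deposited -log10 q-value was at least 2, a q-value no higher than 1%.

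Each list came from 1 untreated ChIP library made from fixed K562 chromatin with the anti-H3K27ac antibody ab4729. The titer is the ratio of antibody to chromatin relative to 0.25 µg of antibody for 10 µg of DNA_chrom, the DNA content measured directly in the chromatin. The 5 libraries of titer over 1 (H3K27ac-0.31-T32, H3K27ac-0.62-T16, H3K27ac-1.25-T8, H3K27ac-2.5-T4 and H3K27ac-5-T2) and 1 of titer 0.5 (H3K27ac-20-T0.5) received 0.25 µg of antibody for every amount of DNA_chrom, and the library names give the amount in µg followed by the titer. The 8 libraries of titer 1 (H3K27ac-10-T1a, H3K27ac-0.31-T1, H3K27ac-0.62-T1, H3K27ac-1.25-T1, H3K27ac-2.5-T1, H3K27ac-5-T1, H3K27ac-10-T1b and H3K27ac-20-T1) received antibody in proportion to DNA_chrom. Every titer other than 1 has 1 library and is named by its titer below, the libraries of titer 1 by the end of their name, and the 2 input libraries carry no peak list. Peaks in 10-T1a and in all libraries of a titer other than 1 were called against 1 input, and those in the other 7 libraries against the other. With 1 library at every other titer, titer 1 alone gives a spread between libraries of a titer. That spread also holds differences in amount and input. Only 10-T1a and 10-T1b share both amount and titer, and their inputs differ. The same culture may underlie all the libraries, and p-values then measure the spread between these libraries, which may be technical.

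The lists held 64083 to 82143 peaks at this threshold and covered from 32.8 Mb at titer 32 to 75.3 Mb in 5-T1. The labelled cell type was checked against 7 erythroid and megakaryocytic genes (GATA1, TAL1, KLF1, HBG1, HBG2, NFE2 and LMO2). All 7 had a peak in all 14 lists, with a median covered share of their windows of 80.9%. The B cell genes MS4A1 and PAX5 and the T cell gene CD8A had no peak in any list, whereas CD79A, another B cell gene, had one in all 14 and CD79B had one in 1. The lists hold no reads, and read totals of the libraries were not used here, so no interval for depth is given.

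Class I molecules display peptides from inside the cell on nearly all nucleated cells. They consist of a polymorphic heavy chain, such as HLA-B or HLA-C, and the invariant light chain beta-2-microglobulin, the product of B2M, and HLA-E is a heavy chain of low polymorphism that is a ligand of natural killer cell receptors. Class II molecules, heterodimers of an alpha and a beta chain such as HLA-DRA with a DRB product, present peptides taken up from outside and are normally restricted to B cells, dendritic cells and macrophages. Neither NLRC5 nor CIITA binds DNA itself. Each joins the RFX, NF-Y and CREB proteins on a shared promoter module of class I genes (NLRC5) or of class II genes (CIITA), and both genes respond to interferon. K562 is well known as a target of natural killer cells with little class I on its surface.

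The promoter module sits just before the start of transcription, and the bases there set the marked B2M beside unmarked heavy chain genes. The RefSeq promoter table of GRCh38.p14 held entries for 5 of the 9 genes, with 2 entries for HLA-DPA1, and none for HLA-E, HLA-DRA, CIITA and NLRC5. The 250 bases before the start are shown for B2M (chr15:44711267-44711516, + strand), HLA-B (chr6:31357180-31357429, - strand), HLA-C (chr6:31272093-31272342, - strand) and HLA-DQA1 (chr6:32637156-32637405, + strand), each 5′ to 3′ on the strand of the gene. HLA-B, HLA-C and HLA-DQA1 were chosen for display after their values had been seen. Capitals mark matches on either strand to ATTGG (the Y box bound by NF-Y), TGACG (the core of a CRE, bound by CREB), the interferon-stimulated response element (GAAA, any 2 bases, GAAA) and, in HLA-B, the kappa B site of class I genes.

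B2M: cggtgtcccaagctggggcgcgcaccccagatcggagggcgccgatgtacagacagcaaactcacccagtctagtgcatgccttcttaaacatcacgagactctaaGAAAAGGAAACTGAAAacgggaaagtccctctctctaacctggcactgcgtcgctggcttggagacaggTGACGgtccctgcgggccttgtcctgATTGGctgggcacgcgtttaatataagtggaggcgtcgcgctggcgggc
HLA-B: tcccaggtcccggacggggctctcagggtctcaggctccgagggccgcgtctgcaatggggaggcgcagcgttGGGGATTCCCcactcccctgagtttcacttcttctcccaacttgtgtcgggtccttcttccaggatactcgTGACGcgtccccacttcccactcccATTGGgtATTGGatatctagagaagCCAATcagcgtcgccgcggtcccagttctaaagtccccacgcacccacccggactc
HLA-C: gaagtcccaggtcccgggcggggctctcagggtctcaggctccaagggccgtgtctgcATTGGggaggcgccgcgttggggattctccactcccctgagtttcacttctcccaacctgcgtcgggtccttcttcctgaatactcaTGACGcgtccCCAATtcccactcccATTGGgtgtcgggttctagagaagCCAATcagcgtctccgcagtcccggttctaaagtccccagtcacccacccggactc
HLA-DQA1: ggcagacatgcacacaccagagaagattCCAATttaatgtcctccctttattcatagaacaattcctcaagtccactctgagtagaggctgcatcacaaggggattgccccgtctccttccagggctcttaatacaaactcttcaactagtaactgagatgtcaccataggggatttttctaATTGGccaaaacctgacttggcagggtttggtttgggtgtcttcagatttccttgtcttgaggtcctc

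B2M, HLA-B and HLA-C all held a CRE core followed by a Y box closer to the start. In B2M the CRE core lay 75 to 71 bases before the start and the Y box 49 to 45 bases before it. In HLA-B the CRE core lay 106 to 102 bases before the start with 3 Y box matches after it, and in HLA-C it lay 105 to 101 bases before the start with 3 of the 4 Y box matches after it. HLA-DQA1 held 2 Y box matches and no CRE core. The X box letters AGCAACAG, taken from HLA-DRA and bound by RFX, were found in none of the 4 sequences and once in the HLA-DPA1 entry whose start is at position 33073649. ATTGG and TGACG are common letters, held by 32% and 21.2% of 35116 promoter entries. Fewer entries held the interferon-stimulated response element (3.02%), AGCAACAG (1.31%) or the kappa B letters (0.0683%). A match describes letters and not binding. The windows of HLA-B, HLA-C and HLA-DQA1 had no peak, while a peak overlapped the B2M sequence in all 14 lists.

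The 9 genes divided sharply by presence of a peak. B2M, HLA-E and CIITA had a peak in their window in all 14 lists, as did 58.9% of all genes, NLRC5 had one in 5 lists, and 13.7% of all genes had one in 1 to 13 lists. HLA-B, HLA-C, HLA-DRA, HLA-DPA1 and HLA-DQA1 had none in any list, as did 27.4% of all genes. These 5 windows also stayed without a peak when all deposited peaks, reaching a q-value of 5%, were counted. The plot of peak lists per gene shows the same division among related genes.

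Among class I genes, B2M on chromosome 15 (44711517 to 44718145, + strand) was the most strongly marked. The covered share of its window was 11.7% at titer 32, 11.4% at 16, 15.7% at 8, 20.7% at 4 and 18.9% at 2. It was 23.1% at titer 0.5 and ranged from 21.0% to 26.1% with a median of 23.1% in the 8 libraries of titer 1. All 8 libraries of titer 1 thus lay above all 5 of titer over 1, without overlap, which held for 12.2% of 14387 genes. The strongest B2M peak had a fold enrichment of 9.58 to 22.8 and stood at the 96.7 to 99.7 percentile of the peaks of its own list.

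Most B2M coverage lay in 1 block over the start of the gene, from -2126 to 2052 bases relative to it, which also reaches into the neighbouring gene PATL2. This block was present in all 14 lists, covered 1732 to 3864 bases and made up 83.6% to 100% of the B2M coverage. In 10 lists a single peak ran across the start. In the other 4, those of titer 32, 16, 8 and 2, the peaks left a gap of 206 to 236 bases at the start. Each of these gaps covered the bases from -167 to 14 relative to the start, a stretch that holds all the capital letters of the B2M sequence above. The remaining B2M peaks were called in 1 to 5 lists each, with a fold enrichment of 3.44 to 4.85.

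HLA-E on chromosome 6 (30489509 to 30494194, + strand) was the only one of the 6 HLA genes among the 9 with a peak. Its covered share was 5.41% at titer 32, 5.31% at 16, 10.3% at 8, 8.64% at 4 and 11.2% at 2. It was 12.6% at titer 0.5 and ranged from 6.90% to 15.9% with a median of 9.29% in the libraries of titer 1. Here the groups overlapped, and 10-T1a and 10-T1b, which share amount and titer, differed by 4.80 percentage points (15.9% and 11.1%). Its strongest peak had a fold enrichment of 5.03 to 9.09 and a percentile of 61.9 to 86.9, below that of B2M in every list.

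HLA-E carried 2 separate blocks. At its start, peaks lay on both sides but never on the start itself, before it in 10 lists and after it in 13, and in the 9 lists with both the gap measured 231 to 401 bases. The other block lay beyond the end of the gene, with a core 6324 to 7219 bases after the start that was present in all 14 lists. The tables used hold no gene start within 1 kb of that core. The peaks at the start covered 227 to 658 bases in the libraries of titer over 1 (227 at titer 32, 241 at 16, 658 at 8, 509 at 4 and 272 at 2) and 568 to 905 bases with a median of 820 at titer 1, so that only titer 8 reached into the range of titer 1. The downstream peaks covered 214 to 1371 bases at titer over 1 and 187 to 1182 bases at titer 1. In the libraries of titer over 1 the strongest downstream peak, at the 46.0 to 86.9 percentile, and the strongest peak at the start, at the 21.3 to 63.2 percentile, had overlapping ranges, as they did at titer 1 (31.4 to 78.9 and 46.5 to 79.3). Both blocks are shown in the map of peak positions.

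**Figure D1:**
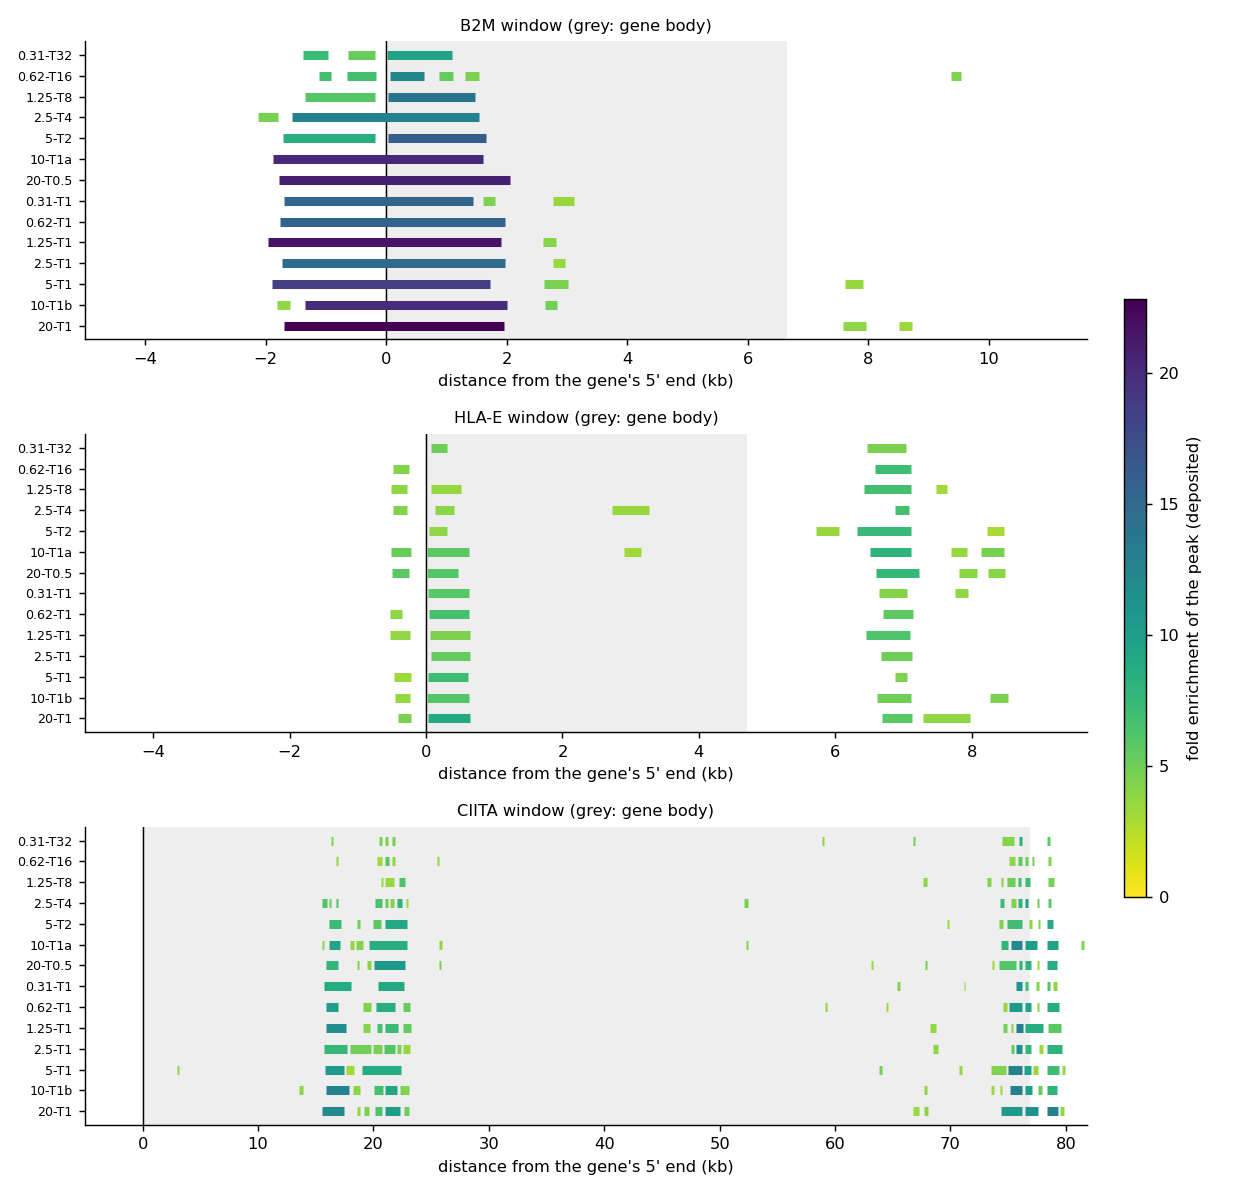
Positions of peaks in the windows of B2M, HLA-E and CIITA by distance from the 5′ end of the gene (kb, horizontal axis), with 1 row per library; each bar is a peak, its colour is the deposited fold enrichment, and the gene body is grey. B2M has a block over its start in all 14 lists, HLA-E has peaks beside its start and a block beyond its end, and CIITA has none within 1 kb of its start.

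HLA-B (chromosome 6, 31353875 to 31357179, - strand) and HLA-C (31268749 to 31272092, - strand), the classical heavy chains that present peptides to cytotoxic T cells, lay together in a stretch of 191 kb without a peak in any list. The nearest peak to the start of HLA-B was 38.9 to 42.4 kb away across the 14 lists, and that to the start of HLA-C was 67.1 to 73.1 kb away. HLA-F and HLA-G had none in their windows either. A list records called peaks only. HLA genes have near-identical copies and many alleles, and whether reads could be placed uniquely in these windows was not tested. The related genes MICA and MICB, stress-induced ligands of a natural killer cell receptor, had a peak in all 14 lists, with median covered shares of 12.4% and 9.38%, and so did HFE, which regulates iron uptake, with 8.90%.

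The 3 class II genes also lay in stretches without peaks. Those of HLA-DRA (411 kb) and HLA-DQA1 (225 kb) were longer than that of HLA-B and HLA-C, and that of HLA-DPA1 was slightly shorter. HLA-DRA (chromosome 6, 32439887 to 32445046, + strand), the alpha chain of HLA-DR, had its nearest peak 170 to 243 kb from its start, and HLA-DQA1 (32637406 to 32655272, + strand), the alpha chain of HLA-DQ, had it 27005 to 200483 bases away. Both fell in a span of 636 kb, from position 32199165 to 32835488, that holds 10 protein-coding genes, 8 of them HLA genes. A single peak was called in it, in 0.62-T1, of 202 bases and with a fold enrichment of 4.72. HLA-DPA1 (33064569 to 33080748, - strand), the alpha chain of HLA-DP, lay in a separate stretch of 181 kb without peaks, and its nearest peak was 81.0 to 106 kb from its start. On either side of that stretch peaks returned. BRD2, a chromatin reader encoded between HLA-DMA and HLA-DOA, had one in all 14 lists.

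The rest of the region carried peaks. From HLA-F to TAPBP, a span of 3.59 Mb, 17 of 18 HLA genes counted (94.4%) had no peak in any list, against 13 of 121 other protein-coding genes (10.7%). A peak in all 14 lists was found for 1 HLA gene, HLA-E, and for 98 of the other genes (81.0%). The genes are neighbours with overlapping windows, so these shares are a description. Long stretches without peaks were not particular to the HLA genes, since 1266 stretches in the genome, assembly gaps included, were longer than the 411 kb around HLA-DRA, and the longest one between positions 28 and 34 Mb of chromosome 6, of 585 kb, held mainly olfactory receptor genes.

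**Figure D2:**
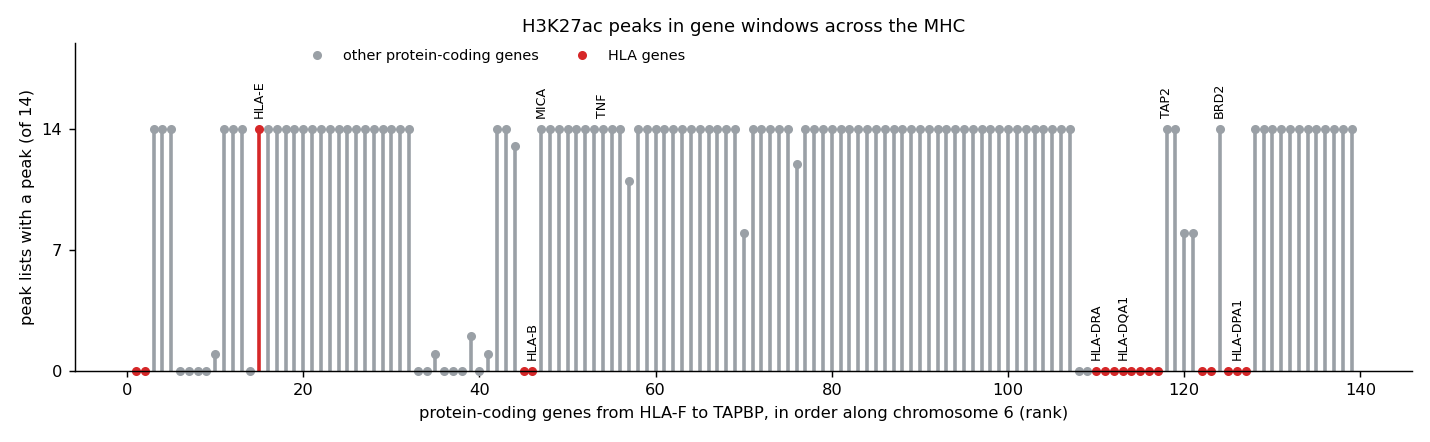
Number of peak lists, of 14, with a peak in the windows of the protein-coding genes counted from HLA-F to TAPBP, in order along chromosome 6 (rank on the horizontal axis); HLA genes are red and other genes grey. HLA-E is the only red point at 14, and the other 17 HLA genes plotted lie at 0.

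The activators differed from each other. CIITA (chromosome 16, 10866206 to 10943021, + strand), which drives class II genes, had a covered share of 3.35% at titer 32, 3.62% at 16, 5.09% at 8, 5.59% at 4 and 7.89% at 2. It was 9.67% at titer 0.5 and 7.69% to 12.8% with a median of 10.99% at titer 1. The lowest library of titer 1, 0.31-T1, was below that of titer 2, the highest library of titer over 1, so the groups overlapped at this edge. Fold enrichment at its strongest peak was 5.92 to 13.2 at the 76.8 to 94.6 percentile.

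None of the CIITA peaks lay at its annotated start. The nearest peak was 2999 to 20638 bases from it, and no list had one within 1 kb. The peaks formed an inner block, 15503 to 23237 bases after the start and inside the gene body, and a block 73183 to 79938 bases after it. The latter lay at the end of CIITA, within 1 kb of the starts of its neighbours DEXI and CLEC16A, and its peaks therefore cannot be assigned to CIITA. The remaining 17 of the 21 CIITA regions appeared in 1 to 4 lists each. CIITA is transcribed from several alternative promoters, and the gene table used gives only the outermost start, so which of them lies near the inner block was not examined.

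The inner block alone covered 1010 bases at titer 32, 1291 at 16, 1374 at 8, 2637 at 4 and 3977 at 2. It covered 4330 bases at titer 0.5 and 4158 to 6333 bases with a median of 5187 at titer 1. All 8 libraries of titer 1 were thus above all 5 of titer over 1. Whole windows showed such a separation for 12.2% of genes, and the whole window of CIITA did not. The block was drawn after its peaks had been seen, and no share over all genes was counted for such blocks. The block at DEXI and CLEC16A covered 1553 to 2676 bases at titer over 1 and 1774 to 4708 bases at titer 1, with overlap at its lower end. Of the covered bases of CIITA, 31.1% to 68.1% lay in the inner block and 26.6% to 60.5% at the starts of its neighbours.

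**Figure D3:**
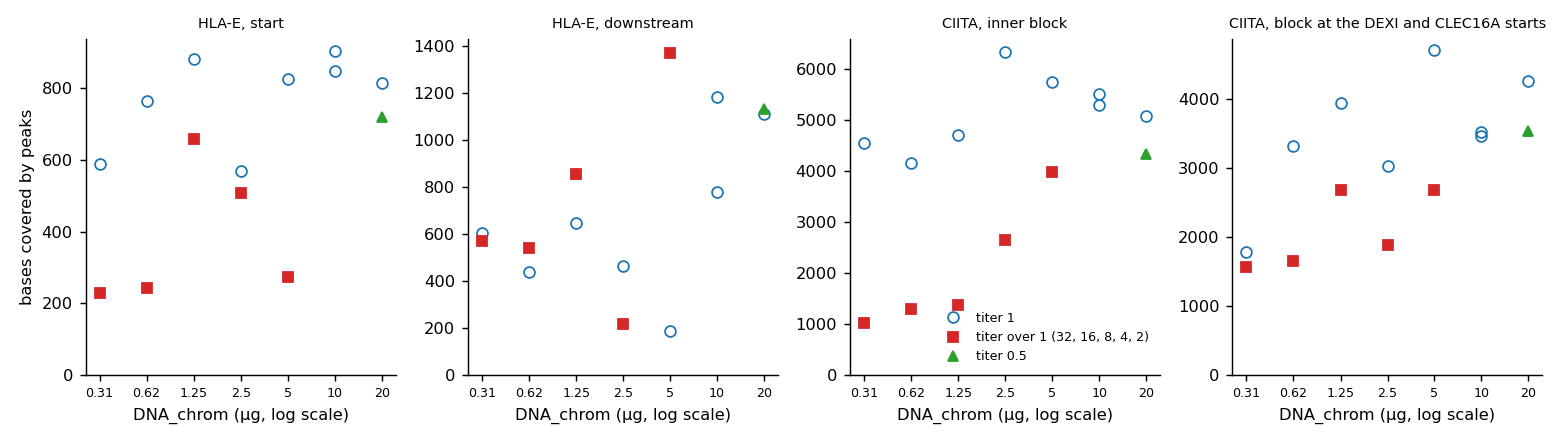
Bases covered by peaks (vertical axis) in 2 blocks of HLA-E and 2 blocks of CIITA against the amount of DNA_chrom (µg, log scale); circles are libraries of titer 1, squares those of titer over 1 and the triangle that of titer 0.5. In the inner block of CIITA the 5 squares lie between 1010 and 3977 bases, below the 8 circles at 4158 to 6333, while the downstream block of HLA-E shows overlap.

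NLRC5 (chromosome 16, 56989557 to 57083520, + strand), the activator of class I genes, was nearly bare. A peak was called at titer 8, 4, 2 and 0.5 and in 10-T1b, and the covered share reached at most 0.353% of a window of 104 kb. Its 4 regions were 168 to 288 bases long, lay 70787 to 77160 bases after the start and appeared in 1 or 2 lists each, with a fold enrichment of at most 4.53. The nearest peak to the start was 14026 to 55959 bases away. At a -log10 q of at least 3 a peak was left in 3 lists, and at 5 in none, so NLRC5 was at the edge of detection in these lists.

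The covered share was then set against the titer in the 8 libraries with 0.25 µg of antibody (the libraries of titer 32, 16, 8, 4, 2 and 0.5, 10-T1a and 10-T1b). In these libraries a higher titer goes with less DNA_chrom, and titer and amount cannot be told apart. Pearson's r with log2 titer was tested by exact permutation over 40320 orders, adjusted by Benjamini-Hochberg over 14157 genes with a peak in these libraries. A negative trend passed an adjusted p of 0.05 for 56.7% of genes tested and a positive one for 0.410%, and 65.1% had an unadjusted p under 0.05. B2M, HLA-E and CIITA, 3 of the 4 members tested, were among the negative ones, a share that is read against this high background.

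For B2M r was -0.945 (exact permutation p = 0.000595, adjusted p = 0.00736) and Spearman's rho was -0.946 (exact permutation p = 0.000992), and the share fell by 2.09 percentage points for each doubling of the titer. For CIITA r was -0.941 (exact permutation p = 0.00119, adjusted p = 0.00919) and rho -0.922 (exact permutation p = 0.00258), with a slope of -1.40. The library of titer 32 lies farthest from the median log2 titer, followed by those of titer 16 and 0.5 at equal distance. Without titer 32 and 0.5, r was -0.911 for B2M and -0.971 for CIITA. Without titer 32 and 16, a choice added after the data had been seen, r was -0.870 for B2M and -0.892 for CIITA (exact permutation p = 0.0222 for both, unadjusted). Within the 7 libraries called against the same input, that is without 10-T1b, r was -0.939 for B2M and -0.942 for CIITA. Both trends passed the adjusted threshold under each alternative run over all genes for them, which for CIITA does not include the window at the start, where it had no peak.

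For HLA-E r was -0.863 (exact permutation p = 0.00620, adjusted p = 0.0192) and rho -0.874 (exact permutation p = 0.00754), with a slope of -1.45. Its r was -0.826 without titer 32 and 0.5, -0.626 without titer 32 and 16 (exact permutation p = 0.186) and -0.880 without 10-T1b, so the relation rested on the libraries of titer 32 and 16. Adjusted p was 0.0730 without titer 32 (r = -0.805) and 0.0516 without titer 16 (r = -0.831), both from the exact permutation test. It was also lost in the gene body alone (r = -0.578), within 1 kb of the start (r = -0.737) and with lists of equal size (r = -0.785). For NLRC5 r was -0.525 (exact permutation p = 0.179, adjusted p = 0.225) and rho -0.491 (exact permutation p = 0.218), and r was -0.265 without titer 32 and 0.5, 0.0561 without titer 32 and 16 and -0.432 without 10-T1b, so no trend was detectable.

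**Figure D4:**
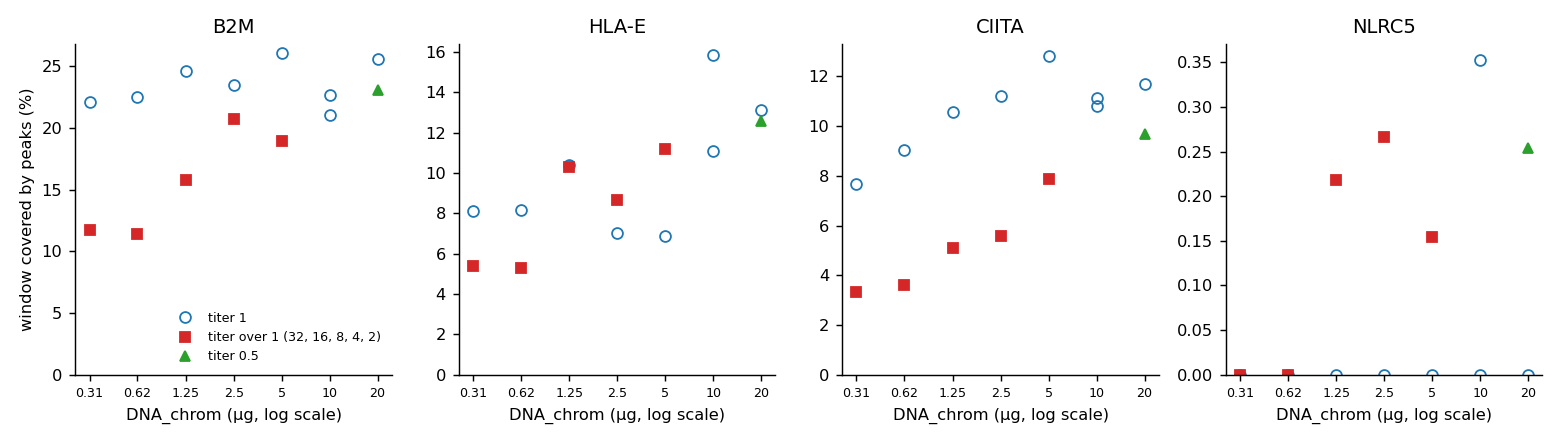
Share of the gene window covered by peaks (%, vertical axis) against the amount of DNA_chrom (µg, log scale) for B2M, HLA-E, CIITA and NLRC5; circles are libraries of titer 1, squares those of titer over 1 and the triangle that of titer 0.5. For B2M the 5 squares lie between 11.4% and 20.7%, below the circles at 21.0% to 26.1%, whereas for HLA-E squares and circles overlap.

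Comparing libraries of the same amount of DNA_chrom asks what the titer changes when the amount is held. At each of the 6 amounts other than 10 µg the library of titer 1 was set beside that of another titer, which at 20 µg is 0.5 and elsewhere over 1. The libraries of titer 1 in these pairs have another input library than their partners, so titer and input cannot be told apart. The exact sign-flip test over 64 patterns cannot give a p below 0.03125, which is reached where all 6 differences share a sign. Titer 1 was higher at all 6 amounts for 39.9% of 14348 genes and lower at all 6 for 0.739%. No gene passed an adjusted p of 0.05 in this test, while 5834 had an unadjusted p of 0.03125.

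B2M was higher at titer 1 in all 6 pairs, by 10.4, 11.1, 8.84, 2.81, 7.11 and 2.47 percentage points from 0.31 to 20 µg, with a mean of 7.12 (exact sign-flip p = 0.03125, adjusted p = 0.0769). CIITA was also higher in all 6, by 4.35, 5.42, 5.49, 5.63, 4.95 and 2.05 points, with a mean of 4.65 (exact sign-flip p = 0.03125, adjusted p = 0.0769). Between 10-T1b and 10-T1a, which share amount and titer but not input, the difference was 1.64 points for B2M and -0.326 for CIITA, smaller than the difference in each of the 6 pairs of the same gene. With the stricter -log10 q of 3, 5 or in the gene body, B2M was no longer of 1 sign in all pairs (exact sign-flip p = 0.0625).

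HLA-E over its whole window was higher at titer 1 in 4 of 6 pairs, with a mean difference of 0.0488 points (exact sign-flip p = 0.969), from -4.29 at 5 µg to 2.87 at 0.62 µg. The difference between 10-T1b and 10-T1a was -4.80 points, larger than in any of the pairs. Within 1 kb of its start titer 1 was higher in all 6 pairs, with a mean of 15.1 points of that narrower window (exact sign-flip p = 0.03125, adjusted p = 0.138). At this setting 22.7% of 11993 genes tested had 1 sign in all 6 pairs. NLRC5 was at 0 in all 6 libraries of titer 1 in the pairs and above 0 in 4 partners, with a mean difference of -0.149 points (exact sign-flip p = 0.125).

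Whether the amount of DNA_chrom matters at a constant titer was asked in the 8 libraries of titer 1. No gene passed an adjusted p of 0.05 by exact permutation over 14144 genes, and 15.2% had an unadjusted p under 0.05. Of the members, CIITA had r = 0.799 (exact permutation p = 0.0144, adjusted p = 0.232) and rho = 0.731 (exact permutation p = 0.0476), and r was 0.278 without 0.31-T1 and 0.62-T1, and 0.628 (exact permutation p = 0.192) without 0.31-T1 and 20-T1, which lies as far from the median as 0.62-T1 within rounding, so this relation rested on the libraries at the ends. For HLA-E r was 0.609 (exact permutation p = 0.112, adjusted p = 0.421), for B2M 0.278 (exact permutation p = 0.492, adjusted p = 0.734) and for NLRC5 0.333 (exact permutation p = 0.625, adjusted p = 0.804). Their rho was 0.575, 0.299 and 0.332, with exact permutation p of 0.143, 0.470 and 0.625, and r without 0.31-T1 and 0.62-T1 was 0.570, -0.127 and 0.277, and without 0.31-T1 and 20-T1 it was 0.512, -0.196 and 0.4996. Within the 7 libraries called against the same input, without 10-T1a, r was 0.808 for CIITA, 0.570 for HLA-E, 0.600 for B2M and 0.408 for NLRC5.

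For the rank of the strongest peak within its own list no trend with titer was called. No gene passed an adjusted p of 0.05 by exact permutation, and 15.1% of 14157 genes had an unadjusted p under 0.05. For B2M r was -0.144 (exact permutation p = 0.723, adjusted p = 0.894) and rho -0.0120 (exact permutation p = 0.990), with 98.0 as its percentile at titer 32 and 98.8 at titer 0.5. For HLA-E r was 0.0366 (exact permutation p = 0.929, adjusted p = 0.975), for CIITA -0.0740 (exact permutation p = 0.864, adjusted p = 0.952) and for NLRC5 -0.496 (exact permutation p = 0.205, adjusted p = 0.565). Their rho was 0.204, 0.120 and -0.540, with exact permutation p of 0.632, 0.780 and 0.173. Leaving out titer 32 and titer 0.5 gave r of 0.300 for B2M, 0.770 for HLA-E, -0.830 for CIITA and -0.0642 for NLRC5, and leaving out titer 32 and 16 gave 0.171, 0.652, -0.0524 and -0.0540.

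The percentile of B2M lay so close to the top of every list that it left little room to vary. The fold enrichment of the same peak was 9.58 at titer 32, 12.2 at 16, 14.003 at 8, 12.8 at 4, 16.1 at 2, 20.3 in 10-T1a, 20.1 in 10-T1b and 20.8 at titer 0.5. It was thus lower in all 5 libraries of titer over 1 than in the other 3 with 0.25 µg of antibody. The share of all genes with this pattern was not counted, so it cannot be read as particular to B2M. Over all 8 libraries of titer 1 the fold enrichment of B2M ranged from 14.95 to 22.8, which overlapped the 9.58 to 16.1 at titer over 1. For CIITA, the strongest peak at titer 32 (94.6 percentile) lay in the block at DEXI and CLEC16A. The strongest peak of the inner block stood at the 51.9 percentile at titer 32, 76.8 at 16, 77.7 at 8, 86.3 at 4 and 87.1 at 2, and at 83.1 in 10-T1a, 91.7 in 10-T1b and 84.0 at titer 0.5. The lowest 3 of these were those of titer 32, 16 and 8, whereas titer 4 and 2 lay within the range of the other 3 libraries. These values are given without a test, since the blocks were drawn after their peaks had been seen.

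The rest of the pathway was read in 5 lists of genes, beside which all protein-coding genes had a median r with titer of -0.798 and a median matched difference of 1.63 points. Over all genes, 58.9% had a peak in all 14 lists, 56.7% of those tested had a called negative trend and 39.9% were higher at titer 1 in all 6 pairs. Of 14 genes that supply and load class I peptides, 12 had a peak in all 14 lists and none was without a peak. A negative trend with titer was called for 8 of the 14 (median r = -0.790), a share close to the 56.7% over all genes. A higher share at titer 1 in all 6 pairs was found for 3 of the 14, PSME1, PSME2 and TAPBP (median difference 2.30 points), beside 39.9% over all genes. The highest median covered shares were those of CALR, a chaperone of the endoplasmic reticulum (81.5%), TAPBP, which tethers class I to the peptide transporter (48.4%), and PSMB10, an immunoproteasome subunit (35.1%). The lowest were those of ERAP2, a peptide-trimming enzyme (1.72%), TAP1, a subunit of the peptide transporter (1.97%), and PSMB9, another immunoproteasome subunit (2.32%). TAP1 and PSMB9 are adjacent genes read through overlapping windows, and both had a peak in 8 lists. The windows of TAP2 and PSMB8, of PSME1 and PSME2, and of ERAP1 and ERAP2 overlap too. The counts of loading genes are therefore not counts of separate loci.

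Trends of the loading genes were called for CALR (r = -0.966), CANX (-0.932), TAPBP (-0.930), PSME2 (-0.911), ERAP1 (-0.897), PSME1 (-0.847), PDIA3 (-0.839) and TAPBPL (-0.741). The matched differences were 13.7 points for PSME1 and 11.7 for PSME2, the subunits of a proteasome activator, and 11.8 for TAPBP. TAP1 (r = 0.395) and PSMB9 (r = 0.395) did not pass the test.

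Of 8 class I heavy chain genes and relatives, 4 had a peak in all 14 lists and 4 in none, beside 58.9% and 27.4% over all genes. HLA-E, MICA (r = -0.840) and MICB (r = -0.792) had a called negative trend, HFE did not (r = -0.594), and the median over these 4 was -0.816, so 3 of 4 were called beside 56.7% over all genes. MICA alone of the 4 was higher at titer 1 in all 6 pairs (39.9% over all genes), by 3.84 points on average, with a median of 1.32 over the 4. Of 14 class II genes 13 had no peak in any list, beside 27.4% over all genes. CD74, the invariant chain that guides class II molecules and also a receptor, had one in 13 lists and a median covered share of 4.36%, and it passed neither test (r = -0.251, matched difference 2.08 points).

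Of the 9 activators and the proteins they bind, 7 had a peak in all 14 lists (58.9% over all genes), RFXAP had one in 12 and NLRC5 in 5. The highest median covered shares belonged to RFXANK (34.1%), NFYC (12.9%) and RFX5 (11.7%), and the lowest to NLRC5 (0%), RFXAP (2.16%) and NFYB (6.67%). A negative trend was called for 6, namely CIITA, CREB1 (-0.897), NFYC (-0.832), NFYA (-0.821), RFXAP (-0.811) and RFX5 (-0.802), with a median r of -0.811 over the 9, beside 56.7% called over all genes. Titer 1 was higher in all 6 pairs for 5 of the 9, CIITA, RFXANK, NFYC, RFX5 and CREB1, with a median difference of 3.39 points, beside 39.9% over all genes.

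Genes of interferon signalling, which induces both activators, had a peak in all 14 lists for 7 of 8, beside 58.9% over all genes. IRF8, a factor of myeloid and B cells, had none in any list. IRF1, a factor induced by interferon gamma, had the highest median covered share (30.7%), followed by IRF9 (18.1%) and IFNGR1 (13.7%), while IRF8, JAK1 (2.85%) and IRF2 (4.51%) had the lowest. A negative trend was called for 6 of the 7 tested (JAK1, IFNGR1, IRF2, JAK2, IRF1 and IFNGR2, r from -0.971 to -0.779, median over the 7 of -0.866), beside 56.7% over all genes. Titer 1 was higher in all 6 pairs for 4 of the 7, IFNGR1, IFNGR2, JAK2 and IRF9, with a median difference of 2.13 points, beside 39.9% over all genes.

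Genes whose covered share followed that of B2M most closely over the 14 lists, among 12676 candidates more than 1 Mb away with a peak in at least 10 lists, were GPATCH8 (r = 0.978), APOLD1 (0.976) and AGPAT1 (0.973). For HLA-E they were DUSP16 (0.965), TMF1 (0.938) and DENND2B (0.904). For NLRC5, with its 5 values above 0, the highest were LOC124905081 (0.790), GBX2 (0.753) and CFAP298 (0.740). All points share their libraries, and these values describe likeness of pattern only.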

How the data were processed

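The data are 14 peak lists from H3K27ac ChIP-seq of K562. The authors aligned reads with BWA (version 0.5.9 in the submitters' processing notes, which also name CASAVA 1.4) and called peaks with MACS2 in each library separately, against 1 of 2 inputs named with each list, from read pairs of which 1 end or both aligned uniquely. The deposited lists give each peak a position, a fold enrichment over input (a ratio) and p- and q-values as -log10. In the methods hg19 and an FDR of 1% are named. The labels give hg38, the contig names belong to GRCh38, and deposited q-values reach 5%, so positions were read as GRCh38 and peaks of -log10 q of at least 2 were kept. The lists hold no reads or signal, and read totals per library were not used here, so no precision from depth is given.

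Gene bodies were taken from RefSeq (GRCh38.p14), on primary chromosomes only. Starts came from its promoter table for 15812 genes and otherwise from the 5′ end of the gene, with the strand from GENCODE by symbol. The covered share is the percent of a window under peaks, and the percentile is the rank of a fold enrichment among all peaks of its list. Tests were exact permutation tests of Pearson's r (two-sided, 8 libraries) and exact sign-flip tests (two-sided, 6 pairs), run on every gene with a peak in the libraries used and adjusted by Benjamini-Hochberg. A trend was called at an adjusted p under 0.05 and a matched difference when all 6 pairs had the same sign. The functions were tested on simulated data. Some genes of the planned lists are not reported here and were left out of their counts. Named were the 9 genes, in each list the genes called and the 3 highest and 3 lowest by median covered share, and the 3 genes most alike in pattern to B2M, HLA-E and NLRC5. The genes and lists were chosen with earlier results of these data known, and the blocks of HLA-E, CIITA and B2M after their peaks were seen, with values only. Pairs at a matched amount come from the amounts in the labels, and they do not share a culture or batch by any label. Alternatives were all deposited peaks, -log10 q of at least 3 or 5, the gene body or 1 kb on either side of the start, lists of equal size, linear scales, unpaired tests and leaving out libraries, and, added after the data had been seen, leaving out another pair of libraries equally far from the median. Computation used Python 3.11.15, numpy 2.4.6, scipy 1.17.1, pandas 2.3.3 and matplotlib 3.10.9.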

Additional observations from a re-analysis of the deposited data

Results flagged for a closer look

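NLRC5 was set apart by 1 of the 8 libraries of titer 1. The covered share of its window was 0.353% in 10-T1b and 0 in the other 7, and the percentile of its strongest peak was 31.7 in 10-T1b and 0 in the others, so both values passed Dixon's criterion. Where the other 7 values are 0, any value above 0 passes it, and both values come from the same peaks of 1 library. Of 16 values tested this way these 2 passed, and they cannot be read against the 1 in 20 that chance gives. The peaks concerned are short and were not called at a -log10 q of at least 5.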

How the results depend on the processing

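With the settings above, 3 members had a called titer trend and 2 a matched difference of 1 sign, beside 57.1% and 40.7% of all genes tested. None was called for amount or for the percentile of the strongest peak under any setting. Within 1 kb of the start 1 member was called for titer, B2M, and 1 for the matched difference, HLA-E, beside 42.3% and 22.7% of all genes tested. The matched difference was called for 1 member, CIITA, at a -log10 q of at least 3, of at least 5 and in the gene body. Of all genes tested, 41.5%, 41.4% and 33.1% were called at these 3 settings. Without the replicate block, libraries were not paired by amount. A call then needed an unadjusted exact permutation p under 0.05 in place of 1 sign in all pairs. The same 2 members were called, CIITA (exact permutation p = 0.0108, adjusted p = 0.0459) and B2M (exact permutation p = 0.00649, adjusted p = 0.0358). With pairing the adjusted p was 0.0769 for both by the exact sign-flip test, and no gene passed 0.05. Of all genes 6423 (44.8%) were called unpaired by the unadjusted exact permutation p. Called genes moved from 8084 for titer to 5246 (39.1% of those tested) in the gene body, to 4977 (42.3%) within 1 kb of the start and to 2929 (20.8%) without titer 32. For the matched difference they moved from 5834 to 2720 (22.7%) within 1 kb of the start. Uncalled values changed sign as follows. The matched difference of HLA-E was -0.190 with all deposited peaks and from -0.516 to 0.917 when a pair was left out. The amount trend of B2M was -0.142 in the gene body. The percentile trend of HLA-E was -0.112 at a -log10 q of at least 3, -0.276 at 5, -0.494 in the gene body, -0.342 within 1 kb of the start, -0.138 without 10-T1b, -0.332 on a linear scale of titer and from -0.258 to 0.792 when a library was left out. That of CIITA was 0.0295 with lists of equal size, 0.0382 without 10-T1b, 0.106 on a linear scale and from -0.553 to 0.424 when a library was left out, and that of B2M was from -0.375 to 0.376. The cause of these changes was not tested. CIITA and NLRC5 had no peak within 1 kb of their start, and NLRC5 none at a -log10 q of at least 5, so these alternatives gave no value for them. Depth is not in the lists, and peaks below their threshold could not be seen.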
